A study of Mus musculus with 12 samples.

Results

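Adipocyte precursors of the visceral (VWAT, perigonadal) fat depot were compared with those of the subcutaneous (SWAT, inguinal) depot in mice on a high-fat diet. The comparison took 6 of the 12 libraries of the study, 3 labelled VWAT_HFD and 3 labelled SWAT_HFD, chosen by depot and diet and not by any measured value, and every gene row of the count matrix. All mice were unmodified C57Bl6/J males, 6 to 8 weeks old. The high-fat groups ate the lard-based diet Research Diets D12492, 60% by its label, for 3 days, and the other 6 libraries (3 VWAT_SD and 3 SWAT_SD, labelled day 0) came from mice on the standard diet Harlan 2018S. Each library held RNA of cells pooled from 3 mice and sorted as negative for the blood and endothelial markers CD45 and CD31 and positive for CD29, CD34 and Sca1, with CD24-negative and CD24-positive cells together. The pool therefore limits each library to an average over 3 mice and over both CD24 fractions. Nothing in the labels says whether a VWAT and a SWAT pool came from the same mice, and p-values measure the spread between these pools.

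White fat grows by enlargement of existing fat cells and by the formation of new ones from fibroblast-like precursors in the tissue stroma. In male mice, precursors of the perigonadal depot are known to enter division within days of high-fat feeding, while those of the inguinal depot respond much less. The depots also have different embryonic origins, and their precursors keep distinct sets of developmental transcription factors, among them Wt1 and Tcf21 in visceral and Tbx15 and Shox2 in subcutaneous cells.

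Depth was 43100524 to 56094076 gene counts in the VWAT libraries and 17630284, 39191931 and 52610578 in SWAT libraries 1 to 3. The 10 most abundant genes took 13.28% to 16.51% of the counts in VWAT and 22.4% to 28.4% in SWAT. The first principal component of the 6 libraries separated the depots with 72.7% of the variance, and on the second (11.4%) position set VWAT library 3 (-37) apart from VWAT libraries 1 and 2 (18.8 and 18.9). Over all 12 libraries, the second component (15.8%) placed the standard-diet libraries at -32.3 to -18.3. On it VWAT library 3 of the high-fat diet stood at -2 and the other high-fat libraries at 17.3 to 46. SWAT library 2 held more leukocyte signal than the others. The 14 leukocyte markers tested summed to 63.1 CPM (counts relative to the TMM-scaled library size) there, against 15.8 and 20.9 CPM in the other 2 SWAT libraries and 9.42 to 14.1 CPM in VWAT. Results that rest on either library are given with and without it. Of the genes of the sort, Cd34 stood at 1033 to 1395 CPM in VWAT and 1477 to 1629.9 CPM in SWAT, Itgb1 (CD29) at 658 to 812 and 590.2 to 607 CPM, and Ly6a (Sca1) at 386 to 636 and 1044 to 1190.3 CPM. Ptprc (CD45) reached 6.93 CPM in SWAT library 2 and at most 0.499 CPM in the other 5. The fat cell markers Adipoq, Plin1, Cidec and Aqp7 did not pass the test in either direction.

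The depots differed in 3830 of 14266 genes tested (26.8%) at an adjusted p under 0.05 by edgeR's quasi-likelihood test. VWAT was higher in 1918 of them (13.4% of all genes tested) and SWAT in 1912 (13.4%). At least 2-fold differences numbered 938 towards VWAT and 818 towards SWAT, and at least 16-fold ones 83 and 91. The 3 libraries of one depot lay wholly above the 3 of the other in 5129 genes (36.0%). Differences are given throughout as log2 VWAT minus SWAT with the standard error of the fit, so positive values mean higher in VWAT, and over all genes tested their median was 0.02. With library size alone as scaling the median rose to 0.30, and 5830 genes (40.9%) were called towards VWAT and 1124 (7.88%) towards SWAT. A gene list with about 13.4% of its members called in a direction is at the share of all genes with the usual scaling. With library size alone the shares to set beside a list are 40.9% towards VWAT and 7.88% towards SWAT, and the median is 0.30. In sorted bulk cells a smaller share of cells that express a gene and less of its RNA per cell cannot be told apart. Without VWAT library 3 the counts of calls were 2233 towards VWAT and 2133 towards SWAT, and without SWAT library 2 they were 1425 and 1427.

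Developmental transcription factors were among the genes with the largest differences. Tcf21, a helix-loop-helix factor of visceral mesoderm, had 125, 102 and 106 CPM in VWAT libraries 1 to 3 and 0, 0.433 and 0.354 CPM in SWAT libraries 1 to 3, a difference of 8.42 ± 0.26 (adjusted p = 2.4e-10). Wt1, the Wilms tumour factor of mesothelium-derived cells, had 104, 98.5 and 119.7 CPM in VWAT and 0.602, 0.495 and 0.208 CPM in SWAT (8.15 ± 0.27, adjusted p = 3.8e-10). Both genes were under 1 CPM in every SWAT library. Their means over the 3 VWAT libraries were 111 ± 12.0 CPM (SD, n = 3) for Tcf21 and 108 ± 10.9 CPM for Wt1. Of the 11 visceral patterning factors tested, 6 were higher in VWAT and 1 in SWAT, with a median of 0.71, against 13.4% of all genes in each direction. The others higher in VWAT included the orphan nuclear receptors Nr2f1 (1.66) and Nr2f2 (0.71), and Gata4, at 0.281 to 0.452 CPM in VWAT and 0 to 0.0208 CPM in SWAT. Gata6, which the same list holds, had 40.2, 53.2 and 57.8 CPM in VWAT and 42.5, 42.7 and 37.3 CPM in SWAT and did not pass the test (adjusted p = 0.067). The 1 factor of that list higher in SWAT was Hand2 (-3.30), at 1.14 to 1.64 CPM there.

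Mesothelial markers moved with the visceral group. Of 9 tested, 6 were higher in VWAT and 1, Krt19, in SWAT, against 13.4% of all genes in each direction. The summed level of the 9 was 151.7 to 175.8 CPM in VWAT and 25.24 to 37.18 CPM in SWAT. Wt1 itself is on that list and made up most of the sum in VWAT, and without it the markers summed to 48.5 to 56.1 CPM in VWAT and 25.0 to 36.6 CPM in SWAT. Msln, which encodes mesothelin and defines mesothelial cells, had 1.03, 1.32 and 0.323 CPM in VWAT and 0, 0.0309 and 0.0208 CPM in SWAT, and Upk3b 0.927, 3.39 and 0.817 CPM in VWAT and 0.134, 0.0619 and 0.104 CPM in SWAT. The part of such cells in the visceral differences was not tested.

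Most patterning factors on the subcutaneous list were higher in SWAT. Among 20 tested, 15 were higher in SWAT and 2 in VWAT, with a median of -1.74, against 13.4% of all genes in each direction. Tbx15, a T-box factor of skin and skeletal mesenchyme, had 0.371, 1.0 and 0.409 CPM in VWAT and 114, 117 and 113 CPM in SWAT (-7.60 ± 0.30, adjusted p = 1.5e-09). Shox2, a homeobox factor of the limb, had 0.0674, 0.261 and 0.0645 CPM in VWAT and 45.1, 37.6 and 41.9 CPM in SWAT (-8.30 ± 0.33, adjusted p = 1.7e-09). The groups did not overlap in either gene, as required by the rule that named the genes with the largest differences. Tbx5, a forelimb factor (-7.43), and the Iroquois factors Irx1 (-7.62) and Irx5 (-6.97) likewise had at most 1 CPM in every VWAT library. En1, a factor of the dorsal dermis, was 9.34-fold higher in SWAT, with 1.72, 2.59 and 2.22 CPM in VWAT and 22.6, 20.6 and 17.9 CPM in SWAT. Both exceptions higher in VWAT, Hoxc8 (0.73) and Meox1 (0.74), differed by less than 2-fold.

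Lhx8, a LIM homeobox gene, was at the floor of detection in VWAT, with 2 counts over the 3 VWAT libraries against 516 over the 3 SWAT libraries. After scaling to library size the ratio was 421.4, with an exact 95% interval from counting error alone of 116.1 to 3489. Oprd1, the delta opioid receptor, had 2 and 468 counts (ratio 382.2, 105.2 to 3165). In the other direction Mmd2, a membrane protein, had 1630 counts in VWAT and 3 in SWAT (ratio 332.7, 113.6 to 1615).

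**Figure D1:**
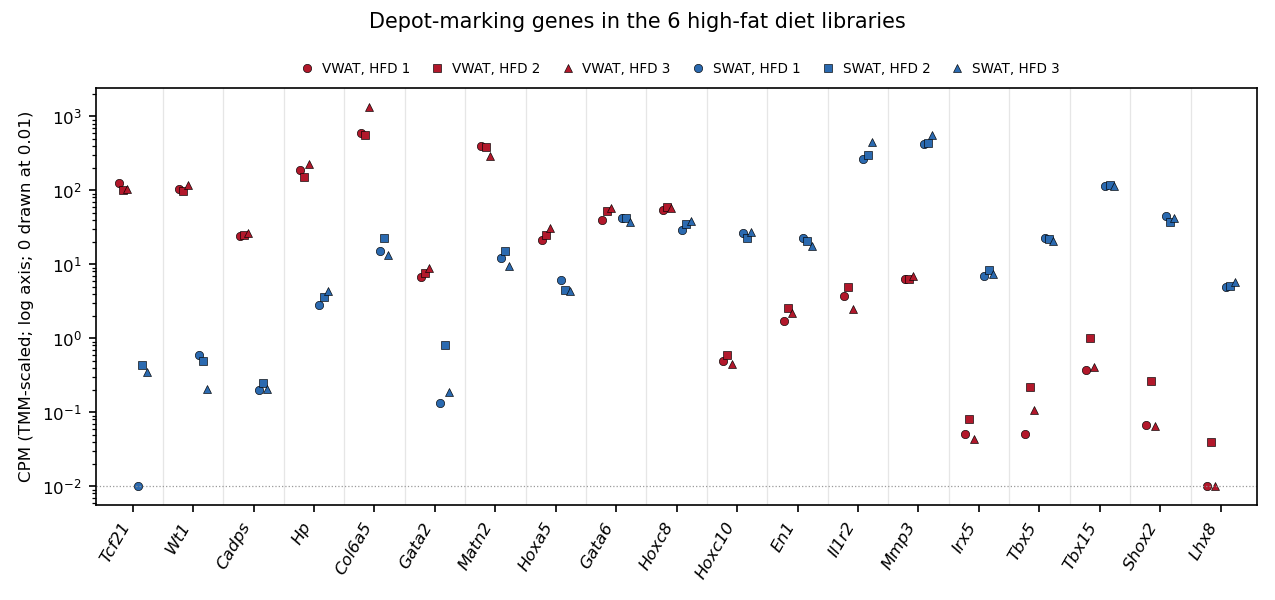
TMM-scaled CPM (log axis, 0 drawn at 0.01) of 19 genes in each of the 6 high-fat libraries, with VWAT in red and SWAT in blue and 1 point per library pooled from 3 mice. The VWAT points of Tcf21 lie at 102 to 125 CPM and the SWAT points below 1 CPM, Tbx15 shows the reverse, and the points of Gata6 overlap.

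Hox genes, which record position along the body axis, differed in both directions. Among 26 tested, 9 were higher in VWAT and 6 in SWAT, with a median of 0.18, against 13.4% of all genes in each direction. The 5 with the lowest adjusted p towards VWAT were Hoxa5 (2.39), Hoxa7 (1.27), Hoxb5 (1.45), Hoxc8 (0.73) and Hoxa2 (1.39), all from the anterior and middle part of their clusters. The 5 towards SWAT were Hoxc10 (-5.63), Hoxa10 (-4.74), Hoxc11 (-5.73), Hoxa9 (-2.86) and Hoxc9 (-0.77), from the posterior part. Hoxc10 had 0.489, 0.602 and 0.452 CPM in VWAT and 26.8, 22.96 and 27.1 CPM in SWAT, and Hoxa5 21.2, 25.1 and 30.5 CPM in VWAT and 6.22, 4.49 and 4.31 CPM in SWAT. Hoxc8 and Hoxc10, genes of the same cluster, thus differed in opposite directions.

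Among other genes with large differences that reached 5 CPM in their higher depot, those towards VWAT were Mmd2 (8.25), Cadps (6.83), a vesicle release protein, Gatm (6.71), an enzyme of creatine synthesis, Ifltd1 (6.22), Epyc (5.98), a small proteoglycan, Cyp2s1 (5.80), Hp (5.66), Col6a5 (5.60) and Hpca (5.55), a neuronal calcium sensor. Hp, haptoglobin, which binds free haemoglobin, had 191, 149 and 224 CPM in VWAT and 2.81, 3.56 and 4.39 CPM in SWAT. Towards SWAT they were Oprd1 (-8.45), Dhrs9 (-7.29), a retinol dehydrogenase, Bmp3 (-6.51), Il1r2 (-6.49), Mmp3 (-6.18) and Prdm6 (-5.99). These genes were named by a rule that required libraries of the 2 depots not to overlap.

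Genes of cell division were higher in VWAT, in 2 of its 3 libraries. Of 35 mitosis genes 25 passed the test towards VWAT and none towards SWAT, with a median of 1.19 (a 2.28-fold difference), against 13.4% of all genes called in that direction. VWAT libraries 1 and 2 were above all SWAT libraries in 35 of the 35 genes. VWAT library 3 was above them in 3, within their range in 21 and below them in 11. Mki67, the antigen used to count dividing cells, had 61.0, 114 and 32.4 CPM in VWAT and 25.9, 36.5 and 31.4 CPM in SWAT (1.14 ± 0.35, adjusted p = 0.029), so the groups overlapped through VWAT library 3. Top2a, the topoisomerase that untangles chromosomes, had 74.7, 116 and 29.8 CPM in VWAT and 27.2, 37.4 and 38.4 CPM in SWAT (1.09 ± 0.36, adjusted p = 0.041). Cdk1, the kinase that drives entry into mitosis, had 21.1, 26.4 and 5.53 CPM in VWAT and 5.22, 6.41 and 6.89 CPM in SWAT (1.50 ± 0.44, adjusted p = 0.023). In each of these 3 genes VWAT library 3 was the lowest of its group. Mitosis levels were higher on the high-fat than on the standard diet in both depots. The mean log2 CPM over the list was 2.22 to 2.65 against -0.22 to 0.53 in SWAT. In VWAT it was 2.29 to 4.33 against 0.52 to 0.96. The change with diet within a depot was not tested.

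The number of mitosis calls depended on single libraries. It was 35 of 35 without VWAT library 3, but 7 without VWAT library 1, 1 without VWAT library 2, and 3, 6 and 6 without SWAT libraries 1, 2 and 3. Leaving out the standard-diet libraries, which share the estimate of spread, gave 15 (VWAT library 1 or SWAT library 2) to 22. It was 1 with only the 6 libraries in the fit and 2 with limma voom, while the median stayed positive under each of these settings. Bub1b, a spindle checkpoint kinase, kept its call under every alternative, with 15.9, 20.8 and 7.27 CPM in VWAT and 5.22, 6.1 and 5.47 CPM in SWAT (1.38 ± 0.30, adjusted p = 0.004, at most 0.024 over the alternatives). The other mitosis genes with the lowest adjusted p were the kinesins Kif20a (1.44) and Kif23 (1.38) and the factors Mybl2 (1.27) and Foxm1 (0.99). Library 3 of VWAT was also the lowest of its group in endothelial markers, with a mean log2 CPM over the list of 0.05 against 2.31 and 1.65, and whether that goes with its mitosis level was not tested.

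**Figure D2:**
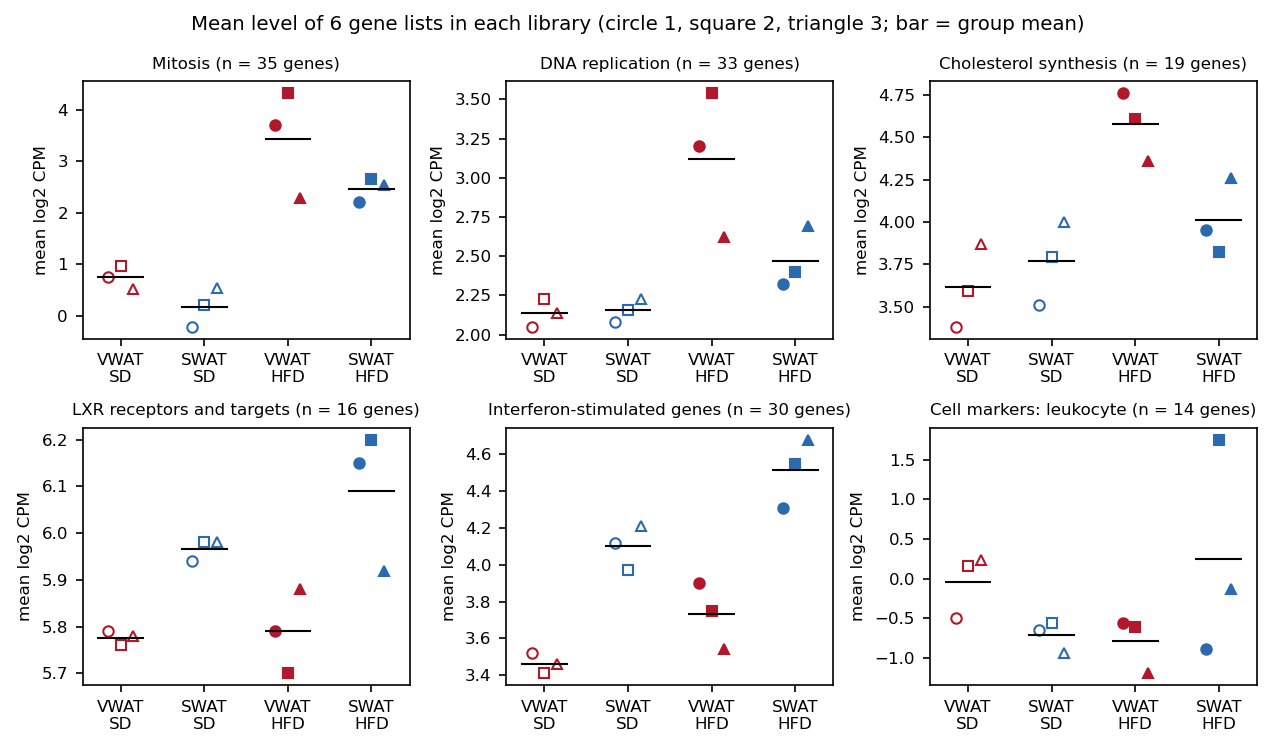
Mean log2 CPM over the genes of 6 lists (vertical), with 1 point for each of the 12 libraries by depot and diet and a bar at each group mean. For mitosis genes, VWAT libraries 1 and 2 on the high-fat diet stand at 3.72 and 4.33, and VWAT library 3, at 2.29, lies among the SWAT libraries at 2.22 to 2.65.

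Mitosis genes are known to share promoter elements, the CHR and the CCAAT box, and the promoters of Top2a and Cdk1 are shown because both elements occur in them. The sequences are the 200 bases before the start of transcription from RefSeq on build GRCm38.p6, 5′ to 3′ on the gene's strand, with TTTGAA (CHR) and CCAAT in capitals on either strand. They lie at chr11:99024190-99024389, minus strand, and chr10:69352913-69353112, minus strand.
Top2a: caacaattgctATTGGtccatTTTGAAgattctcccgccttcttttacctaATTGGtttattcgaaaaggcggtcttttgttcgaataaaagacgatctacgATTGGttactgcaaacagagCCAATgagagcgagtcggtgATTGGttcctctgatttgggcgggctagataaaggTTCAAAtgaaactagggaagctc
Cdk1: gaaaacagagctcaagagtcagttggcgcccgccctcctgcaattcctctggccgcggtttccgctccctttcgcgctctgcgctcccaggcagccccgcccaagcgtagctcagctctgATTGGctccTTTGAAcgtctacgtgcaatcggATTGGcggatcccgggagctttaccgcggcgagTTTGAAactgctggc
Searched over 250 bases on both strands, TTTGAA occurred in 10 of 31 mitosis promoters (32.3%) and in 12.8% of the promoters of all 10916 genes matched. CCAAT occurred in 23 of 31 (74.2%) and in 40.3% of all. Other lists held both elements as well. TTTGAA occurred in 5 of 18 promoters of proteoglycan and matricellular genes (27.8%), and CCAAT in 13 of 14 of cholesterol synthesis (92.9%), 10 of 11 of antigen presentation (90.9%) and 10 of 14 of sterol sensing, uptake and transport genes (71.4%). These are matches of letters, not measured sites.

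DNA replication genes that passed were, but for 1, also higher in VWAT. Of 33 tested, 21 were higher in VWAT and 1, E2f1, in SWAT, with a median of 0.68, against 13.4% of all genes in each direction. Library 3 of VWAT was above all SWAT libraries in 12 of the 33, and libraries 1 and 2 in 29 and 32. Mcm6, a subunit of the replicative helicase, had 32.4, 36.5 and 23.6 CPM in VWAT and 17.4, 14.8 and 19.8 CPM in SWAT (0.83 ± 0.15, adjusted p = 0.001), with no overlap. Uhrf1, which copies DNA methylation to new strands, had 17.0, 25.9 and 12.2 CPM in VWAT and 4.82, 5.94 and 8.57 CPM in SWAT (1.48 ± 0.25, adjusted p = 0.00062). Both kept their calls under every alternative. Ccne2, the cyclin that starts replication (1.36), Mcm5 (1.30) and the helicase factor Cdc45 (0.87) passed as well. The count towards VWAT was 29 without VWAT library 3, 6 without VWAT library 2, 10 without VWAT library 1, and 10, 6 and 18 without SWAT libraries 1 to 3.

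Regulators of cell cycle entry differed in few cases. Of 15 tested, 1 was higher in VWAT and 2 in SWAT, with a median of -0.02. The 2 of 15 towards SWAT lie at the 13.4% of all genes called in that direction. With library size alone 5 were higher in VWAT and 2 in SWAT, where 40.9% and 7.88% of all genes were called. The median was then 0.26, against 0.30 over all genes. Ccnd1, the cyclin that responds to growth signals, had 23.6, 24.6 and 16.7 CPM in VWAT and 38.6, 53.2 and 60.0 CPM in SWAT, a 2.35-fold higher level in SWAT (adjusted p = 0.00024). Cdkn1a, the inhibitor p21, had 105, 99.0 and 95.03 CPM in VWAT and 191, 202 and 211 CPM in SWAT, 2.02-fold higher in SWAT (adjusted p = 5.8e-05). Cdkn2b, the inhibitor p15, was the 1 gene higher in VWAT, with 2.96, 3.97 and 3.96 CPM in VWAT and 0.802, 0.433 and 0.312 CPM in SWAT.

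Of 19 enzymes of cholesterol synthesis, 9 were higher in VWAT and none in SWAT, and 10 did not pass. The median was 0.52 (1.43-fold, against 0.02 over all genes), and 13.4% of all genes were called towards VWAT. Hsd17b7, a late reductase, had 36.0, 29.8 and 29.7 CPM in VWAT and 13.7, 12.9 and 14.8 CPM in SWAT (1.20 ± 0.10, adjusted p = 1.5e-06). Dhcr7 (0.88), Tm7sf2 (0.85) and Nsdhl (0.59), also late enzymes, were higher in VWAT under every alternative. Sqle, squalene epoxidase, had 64.6, 55.2 and 44.4 CPM in VWAT and 35.2, 30.3 and 48.5 CPM in SWAT and did not pass (adjusted p = 0.14). The count was 12 without VWAT library 3, 7 and 6 without VWAT libraries 1 and 2, and 6, 6 and 10 without SWAT libraries 1 to 3. The sterol regulatory element, searched as TCACNCCAC on both strands, occurred in 0 of 14 promoters of these genes, in 1 of 14 of the sterol sensing, uptake and transport genes (7.14%) and in 1.22% of all promoters, which says only that these letters are not in the windows of the 14.

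Among genes that sense, import and move sterols, 5 of 20 were higher in VWAT and 4 in SWAT, against 13.4% of all genes in each direction. The median was 0.09. With library size alone 8 were higher in VWAT and 2 in SWAT, where 40.9% and 7.88% of all genes were called. The median was then 0.39, against 0.30 over all genes. With the usual scaling the counts were 3 and 2 without any 1 of VWAT library 2 and SWAT libraries 1 and 2. Insig1, which holds the sterol sensor in the endoplasmic reticulum, had 214, 185 and 142 CPM in VWAT and 224, 186 and 226 CPM in SWAT (adjusted p = 0.42), and Stard4, a sterol carrier, 60.0, 52.5 and 43.2 CPM in VWAT and 35.6, 32.7 and 43.9 CPM in SWAT (adjusted p = 0.08). Neither passed. Srebf2, which encodes the factor that switches on the synthesis enzymes, had 180.2, 202 and 198 CPM in VWAT and 147, 135 and 177 CPM in SWAT (0.34 ± 0.11, adjusted p = 0.042), a call lost without any 1 of VWAT libraries 2 and 3 and SWAT libraries 1 and 2, with adjusted p of 0.13, 0.069, 0.13 and 0.19. Higher in VWAT under every alternative were Soat1 (0.59), which esterifies cholesterol for storage, Cyp27a1 (1.03), a sterol hydroxylase, and Insig2 (0.43). Mylip (-1.28), a ubiquitin ligase, and Osbpl3 (-0.80) were higher in SWAT.

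Targets of the oxysterol receptors LXR were, where they passed, higher in SWAT. Of 16 receptors and targets, 7 passed towards SWAT and none towards VWAT with the usual scaling, against 13.4% of all genes in each direction. The median was -0.13, against 0.02 over all genes. With library size alone 2 passed towards SWAT and 6 towards VWAT, where 7.88% and 40.9% of all genes were called. The median was then 0.16, against 0.30 over all genes. With the usual scaling the count towards SWAT was 4 without any 1 of VWAT libraries 1 and 2 and SWAT libraries 1 and 2. Abcg1, a cholesterol exporter, had 0.455, 0.181 and 0.667 CPM in VWAT and 2.07, 2.82 and 1.85 CPM in SWAT (-2.37 ± 0.43, adjusted p = 0.00092) and kept its call, as did Mylip. Abca1, the other main exporter, had 128, 123 and 206 CPM in VWAT and 287, 269.9 and 192 CPM in SWAT (-0.71 ± 0.22, adjusted p = 0.027). Its call was lost without any 1 of VWAT libraries 1 and 2 and SWAT libraries 1 and 2 (adjusted p of 0.096, 0.11, 0.098 and 0.083). The receptors themselves did not pass, with Nr1h3 at 40.0, 32.2 and 45 CPM in VWAT and 28.4, 28.9 and 38.7 CPM in SWAT and Nr1h2 at 55.3, 54.7 and 60.7 CPM in VWAT and 63.6, 65.3 and 65.3 CPM in SWAT. The fatty acid list had a median of 0.04, or 0.33 with library size alone, which called 9 of 19 towards VWAT and 0 towards SWAT. With the usual scaling 4 of 19 were higher in VWAT and 1 in SWAT, against 13.4% of all genes in each direction. Those towards VWAT included the desaturases Fads2 (1.20) and Fads1 (0.69) and Gpam (0.83), the first enzyme of triglyceride synthesis. Srebf1 did not pass, at 92.8, 96.3 and 107 CPM in VWAT and 106, 99.8 and 105 CPM in SWAT.

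Interferon-stimulated genes were higher in SWAT. Of 30 tested, 25 passed towards SWAT and none towards VWAT, with a median of -0.71, where 13.4% of all genes were called towards SWAT, and the count was 20 to 26 without any 1 of the 12 libraries. Type I and II interferons act through STAT factors on promoters of these genes, which encode antiviral and antigen-processing proteins. Ifit1, which binds viral RNA, had 24.0, 17.9 and 15.6 CPM in VWAT and 40.9, 43.4 and 55.7 CPM in SWAT (-1.29 ± 0.16, adjusted p = 4.5e-05). Usp18, a brake on interferon signalling, had 9.84, 8.09 and 4.97 CPM in VWAT and 29.2, 37.2 and 38.4 CPM in SWAT (-2.19 ± 0.20, adjusted p = 2.4e-06). Gbp2, a guanylate-binding GTPase, had 99.2, 71.7 and 80.2 CPM in VWAT and 171, 201 and 174 CPM in SWAT (-1.12 ± 0.13, adjusted p = 1.7e-05). The groups were separate in all 3, with every SWAT library above every VWAT library. Zbp1, a nucleic acid sensor (-1.97), and Mx2 (-1.35) differed in the same direction. With library size alone the count towards SWAT was 13, where 7.88% of all genes were called in that direction.

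The genes of antigen presentation differed likewise. Of 16 tested, 15 were higher in SWAT, with a median of -1.16, against 13.4% of all genes called in that direction. H2-K1, a class I heavy chain, had 332, 309 and 285 CPM in VWAT and 788, 702 and 776 CPM in SWAT (-1.29 ± 0.11, adjusted p = 1.1e-06), and H2-D1 had 467, 415 and 429 CPM in VWAT and 1094, 997 and 1048 CPM in SWAT (-1.26 ± 0.10, adjusted p = 1e-06). Both have near-identical relatives, so reads could be split among them and the values of each are uncertain. Nlrc5, the transactivator of class I genes, had 1.11, 1.47 and 1.21 CPM in VWAT and 6.89, 6.28 and 7.78 CPM in SWAT, a 5.55-fold higher level in SWAT, Psmb8, of the immunoproteasome, was 2.35-fold higher and Tapbp, of the peptide-loading complex, 1.73-fold higher. All 11 class I pathway genes passed towards SWAT with all libraries, without SWAT library 2 and without VWAT library 3, with medians of -0.97, -0.96 and -0.96.

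The class II genes, which leukocytes express strongly, depended on SWAT library 2. Of 5 tested, 4 passed with all libraries (median -2.06), none without SWAT library 2 (median -0.47) and 1 without VWAT library 3. Leukocyte markers moved with them. Of the 14 tested, 6 passed towards SWAT and none towards VWAT, with a median of -1.47, against 13.4% of all genes in each direction. The count towards SWAT was 2 without SWAT library 2 and 3 without VWAT library 1. The B cell gene Ms4a1, too low for the test and named after its values were seen, had 72 counts in SWAT library 2 and at most 6 counts in any other high-fat library. The part of leukocyte RNA in the class II difference was not tested, and the class I difference was as large without that library.

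**Figure D3:**
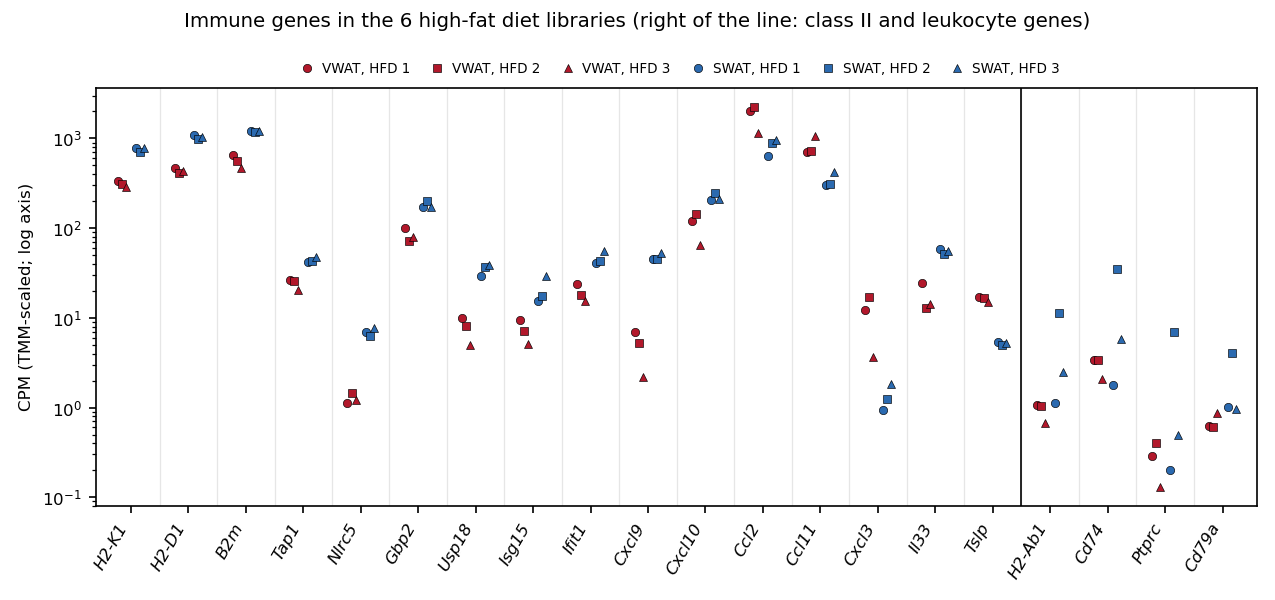
TMM-scaled CPM (log axis) of 20 immune genes in the 6 high-fat libraries, with VWAT in red and SWAT in blue, 1 point per library. For Usp18, Gbp2 and Nlrc5 all SWAT points lie above all VWAT points, for Ccl2 and Ccl11 the reverse holds, and right of the line SWAT library 2 stands above all others.

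The interferon-stimulated response element (ISRE) was searched on both strands, as TTTC, any 2 bases and TTTC again, in the 250 bases before each start, because it is the element through which these genes are known to respond. It occurred in 10 of 22 promoters of interferon-stimulated genes (45.5%), in 2 of 11 of antigen presentation genes (18.2%), in 3 of 15 of chemokines and in 3.25% of all promoters. Other lists held it as well, with 3 of 17 promoters of elastic fibre and fibronectin genes (17.6%) and 2 of 15 of complement and acute phase genes (13.3%). The 200 bases before the start are shown for Isg15 and Ifit1, with adjacent or paired matches, for Gbp2, with 1, and for B2m, the class I light chain, with 1 farther out. Matches are in capitals, and the sequences are from RefSeq, build GRCm38.p6, 5′ to 3′ on the gene's strand, at chr4:156200819-156201018, minus strand (Isg15), chr19:34640689-34640888, plus strand (Ifit1), chr3:142620463-142620662, plus strand (Gbp2) and chr2:122147487-122147686, plus strand (B2m).
Isg15: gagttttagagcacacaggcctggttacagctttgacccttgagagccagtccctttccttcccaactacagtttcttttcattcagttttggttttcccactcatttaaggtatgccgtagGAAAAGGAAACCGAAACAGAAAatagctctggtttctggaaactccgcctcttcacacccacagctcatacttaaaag
Ifit1: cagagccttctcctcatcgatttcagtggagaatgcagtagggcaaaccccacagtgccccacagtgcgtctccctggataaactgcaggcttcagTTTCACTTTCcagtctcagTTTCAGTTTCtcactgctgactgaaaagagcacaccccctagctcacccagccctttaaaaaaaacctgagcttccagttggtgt
Gbp2: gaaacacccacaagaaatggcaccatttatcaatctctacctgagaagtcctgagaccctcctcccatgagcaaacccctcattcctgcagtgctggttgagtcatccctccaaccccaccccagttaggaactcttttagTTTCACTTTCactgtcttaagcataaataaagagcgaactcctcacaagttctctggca
B2m: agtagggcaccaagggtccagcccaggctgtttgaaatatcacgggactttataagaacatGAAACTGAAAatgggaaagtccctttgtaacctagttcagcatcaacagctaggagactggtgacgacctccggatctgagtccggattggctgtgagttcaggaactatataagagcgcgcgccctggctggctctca
The levels of Isg15 were 9.5, 7.22 and 5.14 CPM in VWAT and 15.5, 17.3 and 29.2 CPM in SWAT (-1.51 ± 0.24, adjusted p = 0.00037), and those of B2m 658, 560.3 and 468 CPM in VWAT and 1213, 1175 and 1216 CPM in SWAT (-1.09 ± 0.14, adjusted p = 5.9e-05). Both genes were chosen for display after their values were seen. A match is a description of the letters in this window.

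Chemokines went in both directions, with 6 of 22 higher in VWAT and 6 in SWAT and a median of -0.05 (7, 5 and 0.23 with library size alone). Of all genes 13.4% were called in each direction, and 40.9% towards VWAT and 7.88% towards SWAT with library size alone. Ccl2, which attracts monocytes, had 2032, 2233 and 1144 CPM in VWAT and 633, 886 and 964 CPM in SWAT (1.12 ± 0.24, adjusted p = 0.0032). Ccl11, which attracts eosinophils, had 712, 720.3 and 1056 CPM in VWAT and 305, 313 and 418 CPM in SWAT (1.26 ± 0.16, adjusted p = 6.2e-05). Every VWAT library was above every SWAT library in both. The neutrophil chemokines Cxcl3 (2.97) and Cxcl2 (0.88) were also higher in VWAT, the latter not without VWAT library 2 or SWAT libraries 1 or 3 (adjusted p of 0.1, 0.076 and 0.056). Cxcl1, of the same family, had 3546, 3793 and 2453 CPM in VWAT and 2657, 2996 and 3386 CPM in SWAT and did not pass (adjusted p = 0.69), nor did Ccl7 (adjusted p = 0.41).

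Higher in SWAT were Cxcl13, Cxcl9, Ccl8, Cxcl14 and Cxcl10. Cxcl13, which attracts B cells, had 4.08, 2.21 and 3.23 CPM in VWAT and 32.8, 20.9 and 104 CPM in SWAT (-4.06 ± 0.49, adjusted p = 3.1e-05). Cxcl9, an interferon-induced T cell attractant, had 6.91, 5.28 and 2.22 CPM in VWAT and 44.9, 44.9 and 53.2 CPM in SWAT (-3.30 ± 0.33, adjusted p = 6e-06). Cxcl14 had 61.1, 62.2 and 71.7 CPM in VWAT and 269, 293 and 539 CPM in SWAT (-2.50 ± 0.23, adjusted p = 2.3e-06). The SWAT libraries were the higher ones in all 3 genes without overlap, and these calls held without SWAT library 2. Cxcl12, the homeostatic chemokine of stromal cells, had 188, 157 and 185 CPM in VWAT and 229.6, 234 and 216 CPM in SWAT (adjusted p = 0.034), a call lost without any 1 of VWAT library 2 and SWAT libraries 1 and 2 (adjusted p of 0.14, 0.1 and 0.12).

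Within the interleukin 6 and interleukin 1 families, 5 of 22 genes were higher in VWAT and 9 in SWAT, with a median of -0.25 (8, 8 and 0.04 with library size alone). The shares of all genes were 13.4% in each direction, and 40.9% towards VWAT and 7.88% towards SWAT with library size alone. Il1r2, the decoy receptor that captures interleukin 1, had 3.77, 4.98 and 2.45 CPM in VWAT and 262, 301 and 448 CPM in SWAT (-6.49 ± 0.31, adjusted p = 8.9e-09). Il18r1, the interleukin 18 receptor, had 0.944, 1.73 and 0.194 CPM in VWAT and 63.1, 67.6 and 45.7 CPM in SWAT (-5.92 ± 0.45, adjusted p = 5e-07), and its ligand Il18 8.86, 6.34 and 6.95 CPM in VWAT and 32.5, 32.6 and 33.3 CPM in SWAT. The receptor and the ligand were both higher in SWAT, as were Il1rap (-1.89), the shared co-receptor of the family, and the alarmin Il33 (-1.66). Towards VWAT stood Lif, with 105, 135 and 79.9 CPM in VWAT and 46.0, 51.4 and 52.2 CPM in SWAT (1.09 ± 0.15, adjusted p = 0.0001), and its receptor Lifr, with 91.7, 78.2 and 142 CPM in VWAT and 52.9, 40.9 and 37.0 CPM in SWAT (1.26 ± 0.21, adjusted p = 0.00054). Tslp (1.64) and Clcf1 (1.17), both cytokines, were higher in VWAT too. Il6 itself had 617, 497 and 278 CPM in VWAT and 304, 413 and 329.6 CPM in SWAT and did not pass (adjusted p = 0.26). Among 20 genes of the NF-kB pathway 3 were higher in VWAT and 2 in SWAT, shares near the 13.4% of all genes in each direction. The median was -0.07. With library size alone the counts were 8 and 0, where 40.9% and 7.88% of all genes were called, and the median was 0.21. Traf1 (2.03), a signalling adaptor, and Nfkbie (0.96), an inhibitor of the pathway, were the ones towards VWAT that held under every alternative.

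Complement and acute phase genes divided, with 6 of 22 higher in VWAT and 8 in SWAT, against 13.4% of all genes in each direction. The median was -0.63. C4b, of the classical and lectin pathways, had 112, 104 and 115 CPM in VWAT and 1049, 1185 and 1352 CPM in SWAT (-3.44 ± 0.16, adjusted p = 5.7e-09). C4b has a near-identical copy, so reads of the pair could be split and its value is uncertain. C2, which joins C4b in the C3 convertase, had 12.3, 9.09 and 15.8 CPM in VWAT and 46.3, 59.1 and 51.9 CPM in SWAT (-2.08 ± 0.21, adjusted p = 5.2e-06). Cfb (-1.43) and C1ra (-0.83) were also higher in SWAT, as was Cfi, at 0 to 0.0215 CPM in VWAT and 0.401 to 0.588 CPM in SWAT. The central component C3 had 7409, 6958 and 10702 CPM in VWAT and 9768, 10513 and 13509 CPM in SWAT and did not pass (adjusted p = 0.088). Higher in VWAT, beside Hp, were the inhibitor Cd55 (0.70) and the acute phase genes Lcn2 (2.72) and Saa3 (1.66), the last with near-identical relatives. Activating components were thus among the genes higher in SWAT, while of the inhibitors named Cd55 was higher in VWAT and Cfi in SWAT.

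The chains of type I and type III collagen were higher in SWAT. Of 21 fibrillar and associated collagen genes 9 passed towards SWAT and 5 towards VWAT, against 13.4% of all genes in each direction. The median was -0.31, and 3 passed towards VWAT without VWAT library 3 or SWAT library 3. Col1a1, a chain of type I collagen, had 10572, 14743 and 6882 CPM in VWAT and 56436, 64300.0 and 30465 CPM in SWAT (-2.23 ± 0.29, adjusted p = 5.6e-05). Col3a1 had 40659, 50068 and 22943 CPM in VWAT and 108979, 114295 and 71348 CPM in SWAT (-1.37 ± 0.25, adjusted p = 0.001). Every SWAT library was above every VWAT library in both genes, and in Col1a2 (-1.79), Col5a2 (-0.68) and Col6a3 (-0.97). Col5a3 had 2147, 2590.5 and 2045 CPM in VWAT and 3117, 2961 and 2763 CPM in SWAT (adjusted p = 0.03), a call lost without any 1 of VWAT libraries 1 and 3 and SWAT libraries 1 and 2 (adjusted p of 0.077, 0.061, 0.1 and 0.082). With library size alone, 5 passed towards VWAT and 7 towards SWAT (median -0.03), where 40.9% and 7.88% of all genes were called. The genes named here had the same directions with that scaling.

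Some other collagens were higher in VWAT. Col6a5, a type VI chain, had 588, 557 and 1335 CPM in VWAT and 15.3, 22.3 and 13.2 CPM in SWAT (5.60 ± 0.37, adjusted p = 1.3e-07), with VWAT library 3 the highest. Col8a1, of the short-chain type VIII, had 43.0, 95.1 and 37.0 CPM in VWAT and 21.9, 12.3 and 5.49 CPM in SWAT (2.21 ± 0.42, adjusted p = 0.0014), and Col8a2 12.3, 13.9 and 9.72 CPM in VWAT and 1.47, 1.05 and 1.1 CPM in SWAT (3.36 ± 0.18, adjusted p = 2.3e-08). Type VI thus had chains in both directions, Col6a5 in VWAT and Col6a3 in SWAT.

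**Figure D4:**
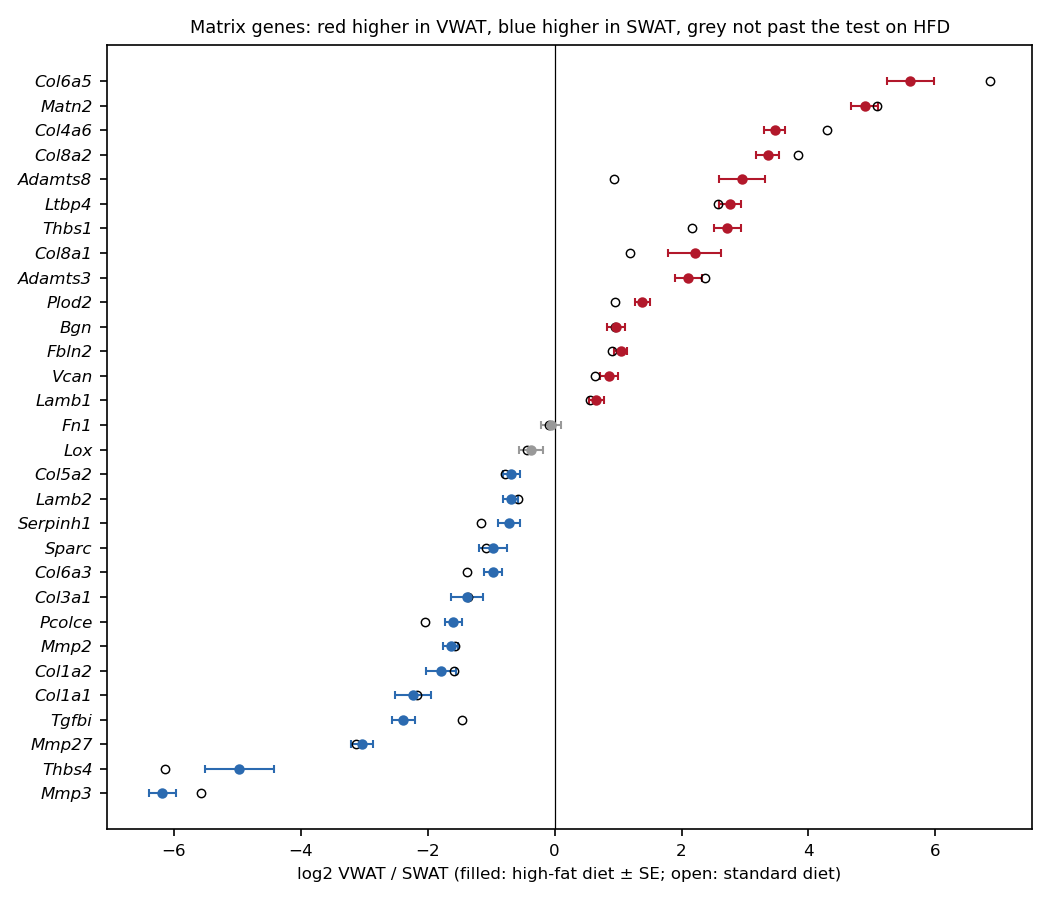
Log2 difference between VWAT and SWAT (horizontal) for 30 matrix genes, with filled points for the high-fat diet (bars, standard error of the fit) and open points for the standard diet. Red points passed the test towards VWAT and blue ones towards SWAT, from Col6a5 at 5.60 to Mmp3 at -6.18, and Fn1 and Lox, in grey, did not pass.

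Basement membrane genes went in both directions, with 6 of 27 higher in each depot and a median of 0.04 (10 in VWAT, 5 in SWAT and 0.34 with library size alone). The shares of all genes were 13.4% in each direction, and 40.9% towards VWAT and 7.88% towards SWAT with library size alone. Col4a6, a minor type IV chain, had 71.1, 78.0 and 97.4 CPM in VWAT and 8.36, 7.83 and 6.41 CPM in SWAT (3.47 ± 0.16, adjusted p = 6.2e-09), and Col4a5 was 1.65-fold higher in VWAT. The major chain gene Col4a1 had 5689, 8183 and 7141 CPM in VWAT and 5478, 5098 and 5788 CPM in SWAT and did not pass (adjusted p = 0.089). Lamb1 (0.65) and Col15a1 (0.63) were higher in VWAT. The laminin chains Lamb3 (-2.56) and Lamb2 (-0.69), with Frem1 (-3.33) and Agrn (-0.90), were higher in SWAT. Laminin beta chains therefore differed in opposite directions, Lamb1 towards VWAT and Lamb2 and Lamb3 towards SWAT.

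Of 24 genes for collagen folding and crosslinking, 10 passed towards SWAT and 4 towards VWAT, against 13.4% of all genes in each direction. The median was -0.32. With library size alone the counts were 5 and 4 and the median was -0.04, against a median of 0.30 over all genes. That scaling called 7.88% of all genes towards SWAT and 40.9% towards VWAT. The median of the list was below that of all genes under both scalings. Pcolce, which speeds the trimming of procollagen, had 606, 654 and 466 CPM in VWAT and 1808, 1756 and 1645 CPM in SWAT (-1.59 ± 0.13, adjusted p = 9.2e-07), and Pcolce2 and the prolyl hydroxylase P4ha2 were 2.24-fold and 1.81-fold higher in SWAT. Plod2, the lysyl hydroxylase of collagen telopeptides, went the other way, with 151, 157 and 126 CPM in VWAT and 59.3, 52.8 and 54.8 CPM in SWAT (1.38 ± 0.12, adjusted p = 1.5e-06), as did the procollagen protease Adamts3 (2.11). Lox, the crosslinking oxidase, had 360.1, 559.5 and 309 CPM in VWAT and 557, 602 and 427 CPM in SWAT and did not pass (adjusted p = 0.19).

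Among 21 genes of elastic fibres and fibronectin, 6 were higher in VWAT and 2 in SWAT, with a median of 0.04 (11, 1 and 0.32 with library size alone). Of all genes 13.4% were called in each direction. With library size alone 40.9% of all genes were called towards VWAT and 7.88% towards SWAT, with a median of 0.30. Ltbp4, which holds latent TGF-beta and helps elastic fibres assemble, had 1314, 1698 and 2114 CPM in VWAT and 288, 258 and 209 CPM in SWAT (2.76 ± 0.17, adjusted p = 7e-08). Fbln2 (1.04), Fbln5 (1.00), Ltbp2 (2.70) and Emilin1 (0.94), of the same fibres, were higher in VWAT, and Fbln7 (-1.52) in SWAT. Fn1, fibronectin, had 9065, 11770.3 and 10943 CPM in VWAT and 12174, 11770.0 and 9139 CPM in SWAT (adjusted p = 0.84).

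Proteoglycans and matricellular proteins differed in 22 of 31 genes tested, with a median of 0.10. Of these, 13 were higher in VWAT and 9 in SWAT, against 13.4% of all genes in each direction. Thbs1, a thrombospondin that activates TGF-beta, had 1958, 2631 and 2292 CPM in VWAT and 285, 283 and 475 CPM in SWAT (2.72 ± 0.22, adjusted p = 7.4e-07). Its relative Thbs2 had 126, 164 and 90.1 CPM in VWAT and 462, 440.3 and 373 CPM in SWAT (-1.74 ± 0.20, adjusted p = 1.8e-05), and Thbs4 0.792, 1.87 and 0.86 CPM in VWAT and 68.0, 31.2 and 12.7 CPM in SWAT. The thrombospondins therefore parted between depots, with Thbs1 in VWAT and Thbs2, Thbs4 and Comp (-4.32) in SWAT. Matn2, a matrilin adaptor, had 402, 383 and 293 CPM in VWAT and 12.2, 15.1 and 9.36 CPM in SWAT (4.88 ± 0.22, adjusted p = 4.5e-09). The CCN proteins Nov (2.57) and Wisp2 (-1.70) differed in opposite directions. Bgn (0.97) and Spon1 (1.46) were higher in VWAT and Tgfbi (-2.38) in SWAT.

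Of 35 matrix proteases and inhibitors, 10 were higher in VWAT and 9 in SWAT, with a median of 0.24 (16, 8 and 0.52 with library size alone). Shares of all genes were 13.4% in each direction, and 40.9% towards VWAT and 7.88% towards SWAT with library size alone. Mmp3, stromelysin 1, had 6.25, 6.36 and 6.88 CPM in VWAT and 424, 434 and 551 CPM in SWAT (-6.18 ± 0.21, adjusted p = 4.3e-10), the largest difference on this list. Mmp2, a gelatinase, had 694, 687 and 894 CPM in VWAT and 2555, 2385 and 2149 CPM in SWAT (-1.64 ± 0.13, adjusted p = 5.3e-07), and Mmp27 (-3.03), Adam33 (-1.98) and the lysosomal protease Ctsk (-0.86) also stood higher in SWAT. Towards VWAT were Adamts8, with 12.5, 19.1 and 7.57 CPM in VWAT and 2.21, 1.55 and 1.5 CPM in SWAT (2.95 ± 0.37, adjusted p = 4.2e-05), Mmp17 (1.41), Adamts10 (0.74) and Adam12 (0.59). Timp1, an inhibitor of the metalloproteinases, had 60.5, 60.2 and 29.1 CPM in VWAT and 39.1, 56.9 and 54.9 CPM in SWAT (adjusted p = 0.97).

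Of 29 fat cell genes and adipogenic factors tested, 11 were higher in SWAT and 1 in VWAT, against 13.4% of all genes in each direction. The median was -0.21. With library size alone the counts were 7 and 6, where 7.88% and 40.9% of all genes were called. The median was then 0.08, against 0.30 over all genes. Pparg, the master factor of adipogenesis, had 13.5, 10.5 and 11.9 CPM in VWAT and 28.8, 26.8 and 30.0 CPM in SWAT (-1.25 ± 0.16, adjusted p = 5.6e-05) and kept its call under every alternative, while Cebpa had 45.0, 42.2 and 42.9 CPM in VWAT and 41.3, 33.0 and 36.5 CPM in SWAT and did not pass (adjusted p = 0.13). Cd36, a fatty acid transporter, had 59.2, 37.5 and 17.5 CPM in VWAT and 218, 204 and 156 CPM in SWAT (-2.34 ± 0.32, adjusted p = 0.0001). Plin4 (-5.77) and Plin2 (-1.05), which coat lipid droplets, and Prdm16 (-1.25), a factor of thermogenic fat, were higher in SWAT as well. The gene towards VWAT was Gata2 (4.30), which restrains adipogenesis. Adipoq was at most 1 CPM in all 6 libraries.

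Markers of precursor subsets leaned towards SWAT, with 12 of 26 higher there, 4 higher in VWAT and a median of -0.52 (11, 7 and -0.23 with library size alone). The shares of all genes were 13.4% in each direction, and 7.88% towards SWAT and 40.9% towards VWAT with library size alone. Dpp4 and Pi16 mark an early progenitor population of fat. Dpp4 had 220.4, 194 and 158 CPM in VWAT and 540.1, 523 and 509 CPM in SWAT (-1.46 ± 0.13, adjusted p = 2.1e-06), and Pi16 had 797, 631 and 679 CPM in VWAT and 2973, 2619.9 and 2727 CPM in SWAT (-1.98 ± 0.12, adjusted p = 8.2e-08). All SWAT libraries were above all VWAT libraries in both, and likewise in Wnt2 (-3.64) and Ly6c1 (-1.38). F3, which marks a subset reported to restrain fat formation, was 2.54-fold higher in VWAT. Cd24a, whose protein the sort did not select on, had 4.33, 3.19 and 1.72 CPM in VWAT and 19.5, 19.6 and 10.6 CPM in SWAT (-2.40 ± 0.31, adjusted p = 6.5e-05). These are levels of mixed cells, and the share of each subset was not measured.

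Genes of the TGF-beta, BMP and retinoid pathways differed in both directions, with 11 of 39 higher in VWAT and 12 in SWAT and a median of 0.12 (18, 10 and 0.41 with library size alone). Shares of all genes were 13.4% in each direction, and 40.9% towards VWAT and 7.88% towards SWAT with library size alone. Inhbb, the activin beta B chain, had 19.7, 26.7 and 46.5 CPM in VWAT and 3.21, 2.82 and 2.68 CPM in SWAT (3.44 ± 0.33, adjusted p = 4.2e-06), and the activin antagonist Fst 121, 108 and 110.2 CPM in VWAT and 234, 222 and 209 CPM in SWAT (-0.97 ± 0.10, adjusted p = 4.9e-06). The ligand was thus higher in VWAT and its antagonist in SWAT, although a second antagonist, Fstl3 (1.28), was higher in VWAT. Bmp6 (1.76) and Nog (2.33) were higher in VWAT and Bmp3 in SWAT. Of the retinoid genes, Rarg (-1.20), a receptor, and Cyp26b1 (-4.44), which degrades retinoic acid, were higher in SWAT.

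Markers of other cell types differed in level between lists, and a single gene made up most of several sums. For each of these lists, the share of all genes called was 13.4% in each direction. Mural markers had 5 of 10 higher in VWAT, led by Des (3.06), and 2 in SWAT, Abcc9 (-3.77) and Kcnj8 (-2.94). The 10 summed to 126.8 to 168.1 CPM in VWAT and 79.84 to 117.1 CPM in SWAT. Without Des they summed to 53.4 to 94.6 CPM in VWAT and 69.6 to 108.7 CPM in SWAT. Des also carried the skeletal muscle list, whose 6 markers summed to 68.9 to 76.1 CPM in VWAT and 11.03 to 14.05 CPM in SWAT, and to 2.43 to 3.35 and 3.77 to 4.88 CPM without it. Of these 6, 1 (Des) was higher in VWAT and 1, the fast muscle gene Myl1 (-5.56), in SWAT. Schwann markers had 4 of 8 higher in SWAT and 1 in VWAT, with Mbp at 1.99, 1.87 and 3.16 CPM in VWAT and 23.01, 26.1 and 23.1 CPM in SWAT. They summed to 500.9 to 534 CPM in VWAT and 422 to 443 CPM in SWAT, and without Pmp22, which fibroblasts also express, to 40.6 to 47.4 and 73.8 to 74.8 CPM. Endothelial markers had 1 of 12, Tek, higher in SWAT. Their sum of 189.7 to 241 CPM in VWAT and 255 to 328 CPM in SWAT came to 8.39 to 50.3 and 18.0 to 46.0 CPM without Tek. Of 4 erythroid markers none passed in either direction. The part of these markers in the differences above was not tested.

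Most of the depot differences were present on the standard diet too. There, 3669 genes (25.7%) passed, 1880 higher in VWAT and 1789 in SWAT (4279 and 1118 with library size alone). Both diets shared 2678 genes, which is 69.9% of the calls on the high-fat diet and 73.0% of those on the standard diet, and in all of them the direction was the same. A further 1152 genes passed on the high-fat diet only, which by itself shows no change with diet. Across genes the differences on the 2 diets correlated with Pearson r of 0.89, a description over genes that are not independent.

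**Figure D5:**
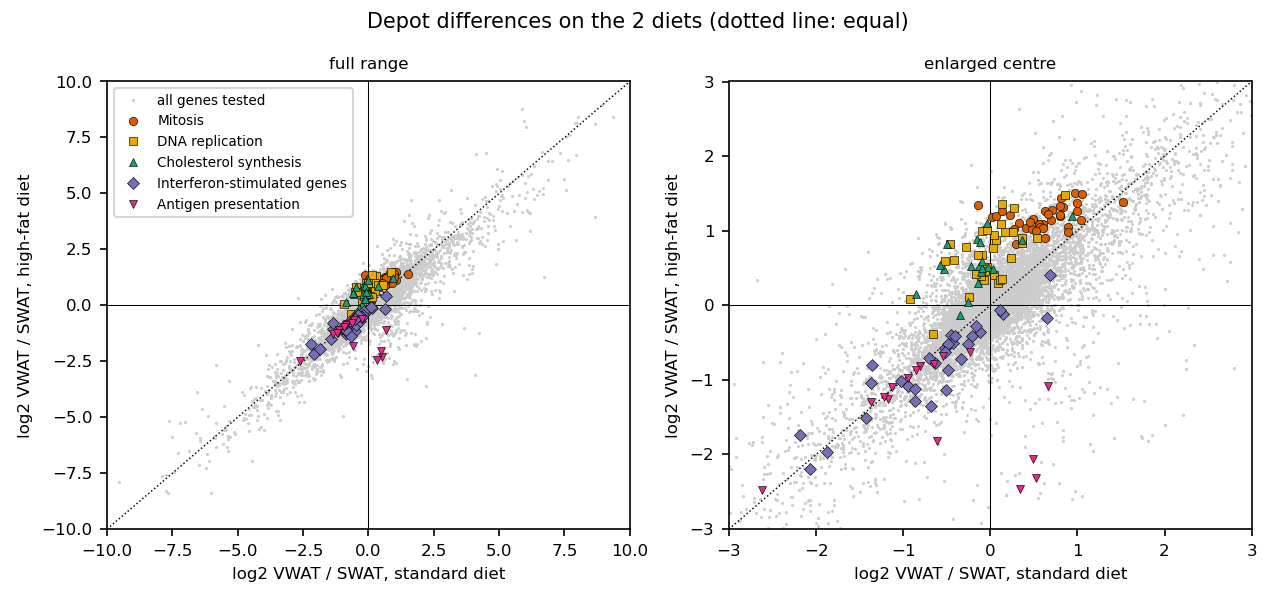
Log2 difference between VWAT and SWAT on the standard diet (horizontal) and on the high-fat diet (vertical), 1 grey point per gene tested and coloured points for 5 lists, over the full range and enlarged. Most points lie along the dotted line of equal differences, and the mitosis, replication and cholesterol synthesis genes lie mostly above it, with medians of 1.19, 0.68 and 0.52 on the high-fat diet.

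The change of the depot difference with diet was tested as an interaction. It passed in 0 of 14266 genes by edgeR's quasi-likelihood test (lowest adjusted p 0.205), with 1026 (7.19%) at an unadjusted p under 0.05, 438 (3.07%) with a change towards VWAT and 588 (4.12%) towards SWAT on the high-fat diet, 33 genes called by DESeq2 and 0 by limma voom. Hp, Ret, Mest and Cldn10 were among the genes with the lowest p-values. Hp differed by 7.48 on the standard diet and by 5.66 on the high-fat diet (-1.82 ± 0.27 for the change, adjusted p = 0.2). The change of Ret, a receptor tyrosine kinase, was 1.14 ± 0.21 (adjusted p = 0.45), that of the imprinted gene Mest 1.16 ± 0.22 (adjusted p = 0.45) and that of Cldn10, a tight junction protein, -1.33 ± 0.26 (adjusted p = 0.45). None of these passes the threshold. Without VWAT library 3 the interaction passed in 135 genes, among them Hp, Lif, Ccl7, Mcm2, Rrm1 and Ccne2, of which Mcm2 and Rrm1 were named after their values were seen.

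No gene passed the test of change, and the lists are described by their counts and medians on the 2 diets. Mitosis genes had 25 calls towards VWAT on the high-fat diet and 1 on the standard diet, with medians of 1.19 and 0.63. Only 2 of these 35 genes had an unadjusted interaction p under 0.05 towards VWAT, against 3.07% of all genes. DNA replication genes had medians of 0.68 and 0.03, and 17 of 33 had an unadjusted interaction p under 0.05 towards VWAT, against 3.07% of all genes. Cholesterol synthesis genes had medians of 0.52 and -0.13, and 13 of 19 had such a p. Nsdhl was an example, with 13.3, 15.0 and 17.8 CPM in VWAT and 14.8, 15.7 and 19.0 CPM in SWAT on the standard diet, where the difference was -0.09, and 22.3, 22.6 and 22.9 CPM in VWAT and 14.9, 12.8 and 17.3 CPM in SWAT on the high-fat diet, where it was 0.59. Interferon-stimulated genes had medians of -0.71 and -0.52 and antigen presentation genes -1.16 and -0.73, towards SWAT on both diets, where the class II genes of the latter list rest on SWAT library 2 as given above. Fibrillar collagens had medians of -0.31 and -0.54.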

How the data were processed

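RNA of 12 libraries (75-base single-end reads, poly(A) selected, dUTP strand-marked, per the labels' protocols) was aligned with TopHat and counted with HTSeq on build mm9, per the submitters' processing notes. Tool versions and the strand setting were not given in the sources used here. Deposited values are raw counts per gene for 14398 genes, each with at least 20 counts in its highest library. The 3 entries that name no gene entered neither the library sizes nor the tests (in the high-fat libraries, reads in no feature 3.527% to 5.566%, ambiguous 1.709% to 1.897%, not uniquely aligned 14.98% to 19.04% of the sum).

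Counts were tested with edgeR 4.0.16 in R 4.3.3 (filterByExpr, which left 14266 genes, TMM scaling, robust quasi-likelihood fit over all 4 groups, residual degrees of freedom 8), with Benjamini-Hochberg adjustment over all genes and a threshold of 0.05. CPM in the text are relative to the TMM-scaled library size. Depth was 17630284 to 56094076 gene counts, and intervals on count ratios cover counting error only. Alternatives were DESeq2 1.42.0, limma 3.58.1 (voom), other scaling and filters, the 6 high-fat libraries alone, the replicate number as a block, and leaving out each library. No 2 libraries of a group agreed within sampling noise. On counts simulated for the high-fat comparison over 14215 genes, 70% of genes changed 1.5-fold upwards and 94% of those changed 2-fold upwards were recovered, with 8 of 14015 unchanged genes called. The changed genes were drawn from those with a mean of at least 5 CPM, and each gene varied independently. Recovery of weaker genes, or of genes that vary together, was not measured.

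Genes and lists were chosen with earlier results of these data known. Named genes were the 12 with the largest differences in each direction among passing genes (mean of at least 5 CPM in the higher depot, groups not overlapping, no predicted models), the 5 members of each list with the lowest adjusted p in each direction, a fixed set of key genes, and the 5 lowest interaction p-values. Some genes that the rule names are not reported here, and genes absent from the table were not analysed here. Promoters were matched by symbol to RefSeq on GRCm38.p6 for 10916 of the 14266 genes, and no coordinates of the counts' build were used.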

Additional observations from a re-analysis of the deposited data

How the results depend on the processing

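Of 379 named or listed genes called on the high-fat diet, 250 kept their call under every alternative, and of 13679 values under alternatives 2 reversed, 830 lost and 270 gained the call. The reversals came with library size alone as scaling, where Ddx58 went to 0.006946 (adjusted p = 0.9562, edgeR) and Lpcat3 to 0.2235 (adjusted p = 0.04332), as the median of all genes rose to 0.30. That scaling gave 6954 calls on the high-fat diet (5830 towards VWAT, 1124 towards SWAT) and on the standard diet 4279 towards VWAT and 1118 towards SWAT. A minimum mean of 5 CPM, which tests fewer genes, gave 2499 (1237 and 1262) on the high-fat and 2364 (1228 and 1136) on the standard diet. Without each library in turn, high-fat calls ranged from 2852 to 4366, towards VWAT from 1425 to 2233 and towards SWAT from 1427 to 2133, and standard-diet calls from 2865 to 4411 (1356 to 2245 and 1414 to 2166). The interaction count was 33 with DESeq2, 0 to 135 without each library in turn and 135 without VWAT library 3, and the cause was not tested.

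Same-numbered high-fat libraries deviated together with correlations of -0.075, 0.184 and 0.07, and VWAT library 1 correlated best with SWAT library 2, so the numbers were not taken as pairs. With the replicate number as a block over 12 libraries, 1897 genes were higher in VWAT and 1890 in SWAT on the high-fat diet, and the interaction passed in 1 gene. On the standard diet the correlations were 0.177, 0.178 and 0.398, each the highest for its VWAT library. The block over 12 libraries gave 3663 calls there against 3669, and the main fit did not model pairs on either diet. With the block and only the 6 libraries of a diet, an alternative chosen after seeing the data, there were 2413 calls (1166 and 1247) on the high-fat diet and 6662 (3340 and 3322) on the standard diet. The same 6 libraries without the block gave 2784 calls on the high-fat diet and 4243 on the standard diet. The shallowest library, SWAT library 1 on the high-fat diet at 17630284 counts, limits the genes near 0 in SWAT.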
